A study of Mus musculus with 12 samples.

Results

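Type 1 and cytotoxic effector genes were followed in γδ and CD4+ T cells of mice. The group was chosen by name and holds 10 of the 52459 genes in the deposited table: the granule proteases Gzma, Gzmb, Gzmk and Gzmm, the pore-forming protein Prf1, the granule membrane protein Nkg7, the death ligand Fasl, the cytokine Ifng and the transcription factors Tbx21 and Eomes. All 10 passed the filter on low counts that left 16218 genes for testing. RNA was sequenced from cells sorted by flow cytometry, in 12 libraries that form 6 groups of 2. The groups were γδ T cells of wild-type C57BL/6 mice on the control or the MCD diet, wild-type CD4+ T cells on each diet, and γδTCR-/- CD4+ T cells on each diet. MCD commonly stands for methionine- and choline-deficient, but the labels do not spell it out. All mice were 7 weeks old and stayed on their diet for 6 weeks. The labels name no tissue, no background strain of the γδTCR-/- mice, here called knockout, and no deleted gene. They also do not say whether libraries came from separate mice, so the p-values measure the spread between these libraries, which may be technical. One γδ library of the MCD diet, replicate 2, carries in its name the label of wild-type CD4+ MCD replicate 1. Whether it is a pool or shares mice with that library is not given. The tests treated these libraries as independent.

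Killer lymphocytes store granzymes and perforin in secretory granules and release them onto a target cell. Perforin opens the membrane and granzymes, which are serine proteases, enter and cut proteins, while Fasl on the cell surface triggers death through its receptor Fas. The T-box factors T-bet, the product of Tbx21, and eomesodermin switch on Ifng and much of this programme. γδ T cells are known as early sources of such effectors, whereas CD4+ T cells mostly act as helpers and use the programme in their type 1 and cytotoxic subsets.

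Total counts per library ranged from 17035638 to 23203603, and 3 counts, the floor used here, corresponded to 0.13 to 0.248 CPM, the counts scaled to library size with TMM factors. The mitochondrial share of counts was 53.8 to 56.8% in γδ libraries, 51.1 and 52.7% in knockout CD4+ libraries of the control diet and 40.8 to 43.9% in the other CD4+ libraries. γδ libraries of the MCD diet had 8989 and 10125 genes with 10 counts or more, against 11903 to 13402 elsewhere. The summed level of 4 γδ receptor genes was 1741 to 3227 CPM in γδ and 16.0 to 307 CPM in CD4+ libraries, and that of 3 αβ receptor genes was 149 to 403 and 576 to 1160 CPM. Trdc, the constant gene of the δ chain, read 538 to 733 CPM in γδ libraries, 0.231 to 2.80 CPM in wild-type CD4+ libraries and 0.920 to 7.93 CPM in knockout CD4+ libraries, so it does not check the knockout in CD4+ T cells. Several marker lists of other cells were higher in γδ libraries. Some genes of the CD8 and NK lists can be made by γδ T cells too, and the source of the reads of these lists was not tested. The CD8 list of 2 genes summed to 69.9 to 327 CPM against 2.99 to 12.8 in CD4+ libraries, mostly from Cd8a at 51.7 to 322 CPM, while Cd8b1 read 2.56 to 18.9 CPM in γδ and up to 6.83 CPM in CD4+ libraries. An NK cell list of 8 summed to 128 to 413 against 8.58 to 86.6 CPM. Of that list, Ncr1 read 5.20 to 64.9 CPM in γδ and at most 2.53 CPM in CD4+ libraries. Klrb1c read 34.1 to 188 CPM in γδ and 0.828 to 64.8 CPM in CD4+ libraries. Klra4 and Klra8 read 0 in all γδ libraries and at most 0.737 CPM in CD4+ libraries. Tyrobp and Fcgr3 of that list are also made by macrophages. A macrophage list of 6 summed to 833 to 2264 against 10.8 to 45.2 CPM. A neutrophil list of 5 summed to 11.4 and 31.1 CPM in γδ libraries of the control diet and 100.05 and 185 CPM in those of the MCD diet. In CD4+ libraries it summed to at most 20.1 CPM. In γδ libraries of the MCD diet Csf3r read 92.1 and 85.2 CPM and S100a9 2.81 and 68.5 CPM. S100a8 read 2.48 and 14.2 CPM and Cxcr2 2.64 and 17.3 CPM there. Retnlg was at 0 in each group.

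**Figure D1:**
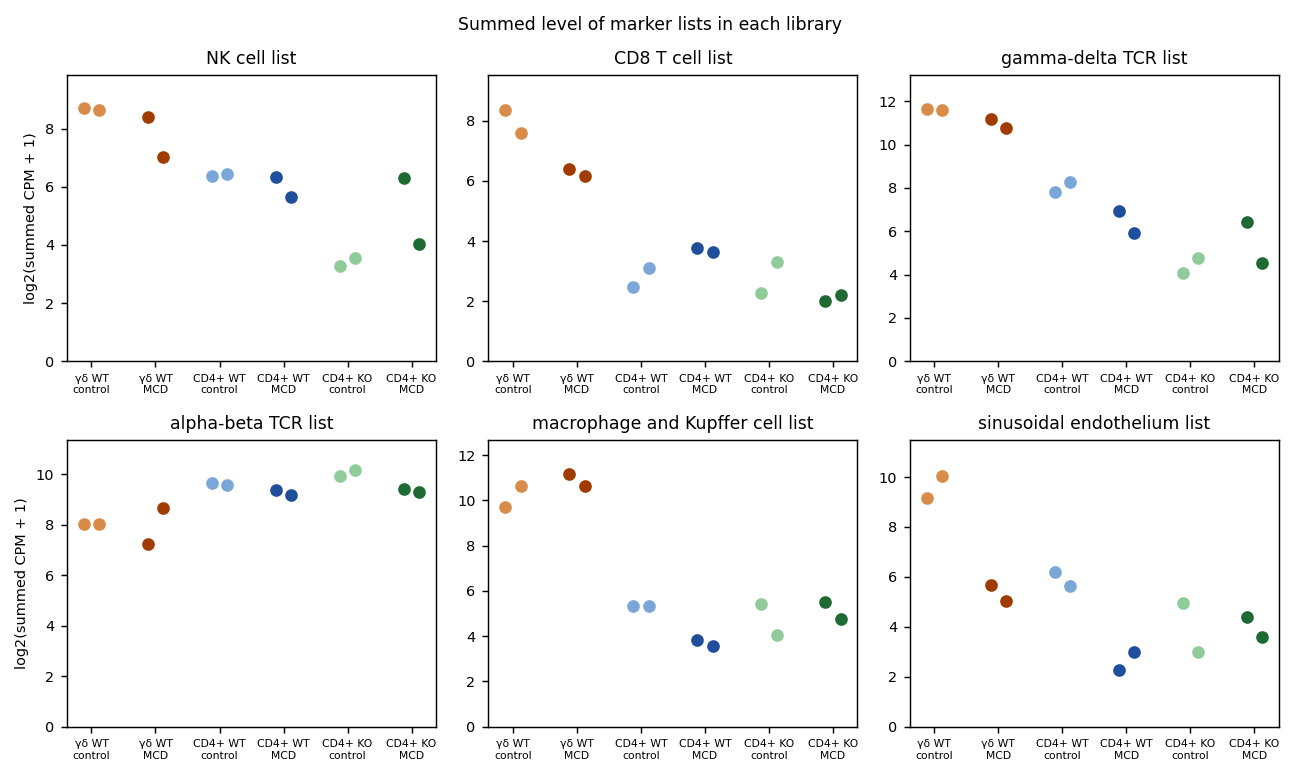
Summed level of marker lists in each library, on a log2(summed CPM + 1) axis. Points are libraries, 2 in each group; NK, CD8, macrophage and endothelial sums were above those of CD4+ libraries in γδ libraries of the control diet, and endothelial sums were 571 to 1064 CPM there but 31.9 to 50.4 CPM in γδ libraries of the MCD diet.

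Of the 3 granzyme genes with most counts, Gzma and Gzmk lie on chromosome 13 and Gzmb on chromosome 14. Gzma (ENSMUSG00000023132.8) lies on the minus strand of chromosome 13 from 113093825 to 113100981, and Gzmk (ENSMUSG00000042385.14) on the same strand from 113171608 to 113225908. Gzmb (ENSMUSG00000015437.5) lies on the minus strand of chromosome 14 from 56258838 to 56262260 (GRCm38, GENCODE vM21). The span of Gzmk holds Esm1 on the other strand, with 0 shared exonic bases. The 250 bases before each RefSeq start (GRCm38.p6, minus strand, 5′ to 3′) are shown for these 3. Gzma and Gzmb were both higher in γδ than in wild-type CD4+ T cells, while Gzmk followed another pattern. None of the 3 windows overlaps an exon of GENCODE, and that of Gzmk lies inside the longer GENCODE span. Capitals mark matches, on either strand, to the letters of a RUNX motif (TGTGGT), a T-box motif (GGTGTGA), an AP-1 motif (TGANTCA) and a STAT motif (TTCNNNGAA), which do not overlap each other in these windows.
Gzma chr13:113100982-113101231: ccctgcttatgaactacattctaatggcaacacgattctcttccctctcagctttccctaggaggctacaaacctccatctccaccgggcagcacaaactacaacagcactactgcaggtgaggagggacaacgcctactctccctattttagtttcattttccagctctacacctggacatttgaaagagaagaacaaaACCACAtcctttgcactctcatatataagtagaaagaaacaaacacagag
Gzmb chr14:56262335-56262584: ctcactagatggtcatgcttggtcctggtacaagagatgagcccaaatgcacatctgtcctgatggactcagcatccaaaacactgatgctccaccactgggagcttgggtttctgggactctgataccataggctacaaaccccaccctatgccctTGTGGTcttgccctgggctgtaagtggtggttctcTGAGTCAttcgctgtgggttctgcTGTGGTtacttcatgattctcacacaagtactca
Gzmk chr13:113180966-113181215: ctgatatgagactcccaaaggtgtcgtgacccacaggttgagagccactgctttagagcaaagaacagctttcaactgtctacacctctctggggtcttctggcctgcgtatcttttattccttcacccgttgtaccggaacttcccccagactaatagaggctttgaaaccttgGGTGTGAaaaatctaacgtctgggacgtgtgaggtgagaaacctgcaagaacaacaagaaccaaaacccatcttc
The Gzma window held 1 RUNX match and the Gzmb window 2 RUNX matches and 1 AP-1 match. The Gzmk window held 1 T-box match, 75 to 69 bases before the start, and no match to the other letters. Among the 11 windows of the 10 genes, 5 held the RUNX letters, 3 the T-box letters, 3 the STAT letters and 1 the AP-1 letters. Of all 32851 windows of this length in the RefSeq table, 14% held the RUNX, 3.33% the T-box, 7.02% the STAT and 6.75% the AP-1 letters. A match describes letters and not a bound site.

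Gzma and Gzmb, both cell-killing proteases, were higher in γδ than in CD4+ T cells of wild-type mice. Gzma read 223 and 226 CPM in γδ libraries of the control diet and 16.4 and 189 CPM in those of the MCD diet. In wild-type CD4+ libraries it read 0.644 and 5.55 CPM on the control and 0.442 and 10.5 CPM on the MCD diet. The lowest γδ library was above the highest CD4+ library. Averaged over the diets, Gzma was 38.2-fold higher in γδ T cells (log2 fold change 5.17, SE 1.05, adjusted p = 0.0128 from edgeR with the quasi-likelihood test and Benjamini-Hochberg adjustment). Gzmb read 653 and 464 CPM in γδ libraries of the control diet and 104 and 186 CPM in those of the MCD diet. Wild-type CD4+ libraries read 85.1 and 43.4 CPM on the control and 37.8 and 20.0 CPM on the MCD diet, again with no overlap. Gzmb was 7.56-fold higher in γδ T cells (log2 fold change 2.72, SE 0.55, adjusted p = 0.0128). With Nkg7, described with the granule proteins, 3 of the 10 genes rose in γδ T cells by this comparison and 0 fell, where 5.96% of all genes tested passed and 3.42% passed as higher. At an unadjusted p under 0.05 there were 5 members, against 26% of all genes. They include Gzmm, which passed the filter on low counts only through γδ libraries, so its direction was fixed in advance. Gzmm also enters the median of the 10 genes given below. The same 3 genes had no overlap between the 4 γδ and the 4 CD4+ libraries, as had 5.56% of all genes in that direction. The median log2 fold change of the 10 genes was 1.60 and that of all genes -0.23. CD8, NK and macrophage sums and the mitochondrial share were also higher in these γδ libraries, in the ranges given with the libraries, and their part in the result was not tested. Without γδ MCD replicate 4 the log2 fold change of Gzma was 3.85, without wild-type CD4+ MCD replicate 3 it was 6.84 and without wild-type CD4+ control replicate 3 it was 6.21, and it was called in each of these fits. In bulk RNA, fewer cells of a type and less RNA per cell cannot be told apart.

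Within each diet no member passed. On the control diet, where 0.654% of all genes passed, Gzma was 72.5-fold (log2 6.13, SE 1.55, adjusted p = 0.124) and Gzmb 8.69-fold higher (log2 3.12, SE 0.79, adjusted p = 0.128) in γδ T cells. On the MCD diet, where 2.65% passed, the ratios were 18.8-fold (adjusted p = 0.121) and 5.03-fold (adjusted p = 0.117). On the MCD diet the log2 fold change of Gzma, 4.20 over all libraries, was 1.56 without γδ MCD replicate 4, 5.05 without γδ MCD replicate 2, 3.27 without wild-type CD4+ MCD replicate 1 and 7.55 without wild-type CD4+ MCD replicate 3. On the control diet it was 5.31 and 8.23 without wild-type CD4+ control replicate 2 or 3. DESeq2 called 2 members on the control and 3 on the MCD diet, beside 917 and 2887 of all 16218 genes. With limma-voom there were 1 and 0 members, beside 244 and 787 genes. At an unadjusted p under 0.05 edgeR had 5 of 10 members on the control diet and 3 on the MCD diet, against 10.9% and 21.9% of all genes. Without any 1 of the 8 libraries of the other groups, both Gzma and Gzmb were called on the control diet, with nearly the same fold changes. The filter on low counts changed in these fits too and left 18502 to 18692 genes, so the part of the left-out library alone was not tested. On the control diet 9 of the 10 members had no overlap between γδ and CD4+ libraries, all but Gzmk, with Ifng the 1 that was lower. This held for 45.9% of all genes. Gzmm is among the 9, with 16 and 13 counts in γδ and 0 in CD4+ libraries of that diet. It passed the filter only through γδ libraries, so its direction was fixed in advance and it gives no support to that count. On the MCD diet 4 members, Gzma, Gzmb, Nkg7 and Ifng, had none, as had 46.5% of all genes.

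**Figure D2:**
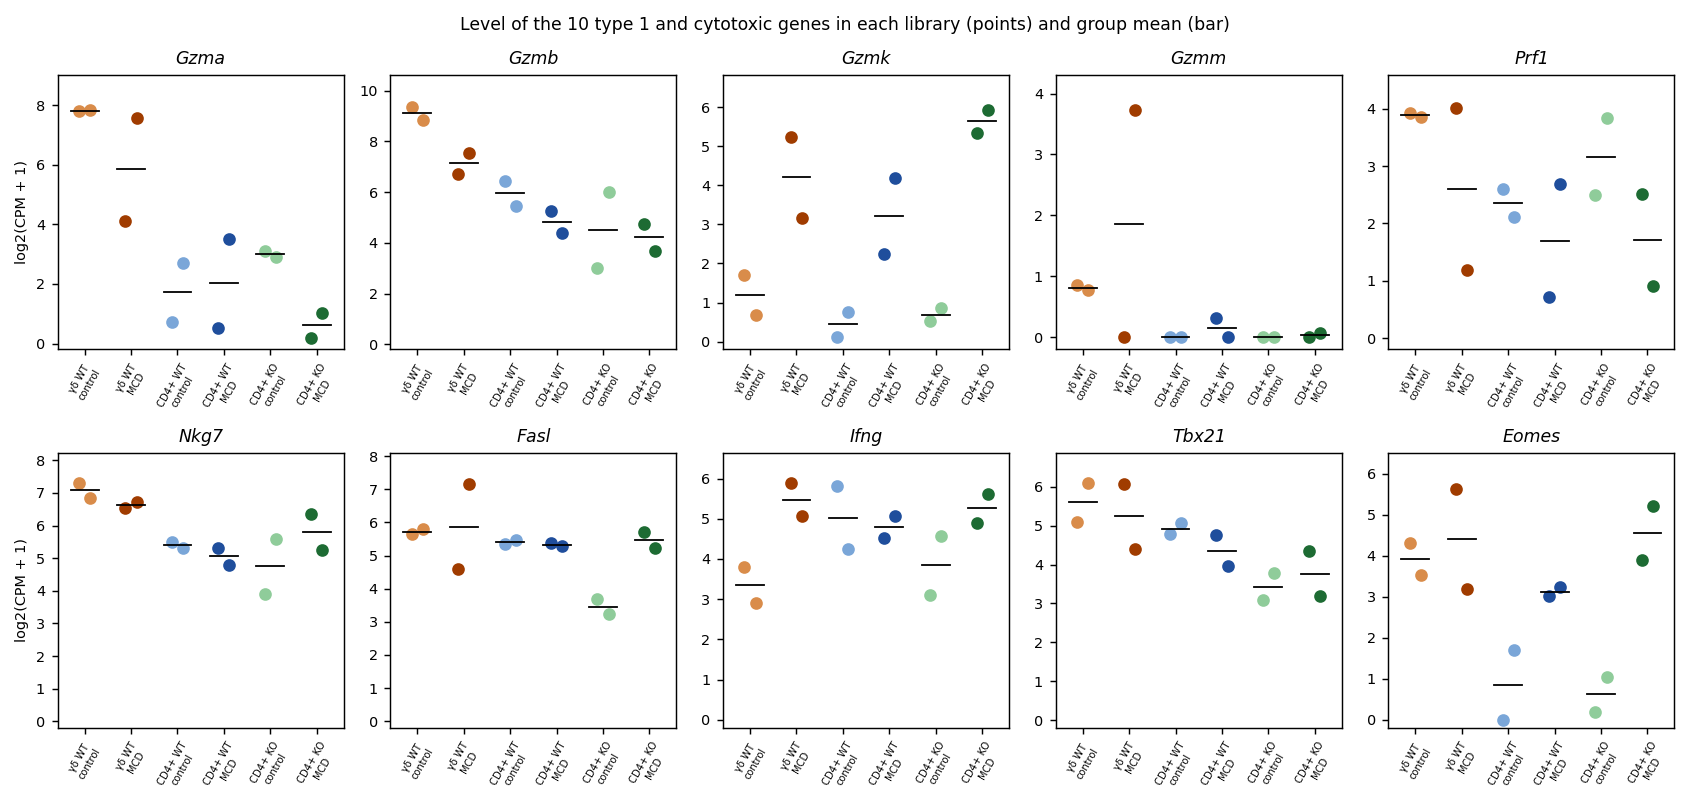
Level of each of the 10 genes in every library as log2(CPM + 1), with points for libraries and a bar for the mean of the 2 log2 values of a group. Gzma, Gzmb and Nkg7 are highest in γδ T cells, while Gzmk and Eomes are higher on the MCD than on the control diet in both kinds of CD4+ T cells.

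Gzmk, a granzyme of memory and tissue-homing T cells, had its highest levels on the MCD diet in each kind of cell. In wild-type CD4+ libraries it read 0.092 and 0.694 CPM on the control diet and 3.74 and 17.1 CPM on the MCD diet. In knockout CD4+ libraries it read 0.439 and 0.817 CPM on the control and 39.5 and 59.6 CPM on the MCD diet. In γδ libraries it read 2.24 and 0.596 CPM on the control and 36.8 and 7.99 CPM on the MCD diet. In each of these 3 pairs of groups every MCD library was above every control library, and the knockout MCD libraries were the highest of all 12. The ratio of means was 26.6 in wild-type CD4+ (log2 fold change 4.41, SE 1.31, unadjusted p = 0.00484, adjusted p = 1), 78.9 in knockout CD4+ (6.09, SE 1.45, adjusted p = 0.272) and 15.8 in γδ T cells (3.89, SE 1.31, adjusted p = 0.19), by edgeR. None of these passed. Averaged over both genotypes of CD4+ T cells the ratio was 58.8 (log2 fold change 5.25, SE 0.98, unadjusted p = 0.000111, adjusted p = 0.139), with all 4 MCD libraries above all 4 control libraries. Gzmk and Eomes were the 2 members without overlap there, as were 2.54% of all genes in that direction.

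The call on Gzmk changed with the tool, the filter and the libraries fitted. Fits without 1 library also changed the filter on low counts, which then left 18496 to 18692 genes in place of 16218. The part of the left-out library alone was not tested. Of the 16218 genes, 6 passed in the average over CD4+ genotypes (0.037%), and 0 of the 10 members did. There 2 members had an unadjusted p under 0.05, against 6.08% of all genes. DESeq2 called both Gzmk (log2 fold change 5.53, adjusted p = 9.48e-09) and Eomes, among 196 of 16218 genes. With no filter on low counts edgeR called both too, among 106 of 25883 genes. A fit of the CD4+ libraries alone called Gzmk (adjusted p = 0.0093), among 54 of 15288 genes. Leaving out 1 library at a time, edgeR called Gzmk in 5 of 12 fits, those without any 1 of the 4 γδ libraries or without wild-type CD4+ MCD replicate 1, with log2 fold changes of 5.25 to 5.60 and adjusted p of 0.00126 to 0.0333. Over all 12 fits the log2 fold change ranged from 4.52 to 5.92. The NK sum was 82.7 and 86.6 CPM in wild-type CD4+ libraries of the control diet and 79.0 and 49.4 CPM in those of the MCD diet. In knockout CD4+ libraries it was 8.58 and 10.6 CPM on the control and 77.6 and 15.3 CPM on the MCD diet, higher on the MCD diet as Gzmk was, and the library with 15.3 CPM had the Gzmk level of 59.6 CPM. CD8 sums in wild-type CD4+ libraries were 4.60 and 7.54 CPM on the control and 12.8 and 11.3 CPM on the MCD diet, higher without overlap where Gzmk was higher. In knockout CD4+ libraries they were 3.80 and 8.89 against 2.99 and 3.63 CPM. The mitochondrial share of the knockout CD4+ libraries also differed by diet, 51.1 and 52.7% against 43.9 and 41.1%. The part of these lists and shares in the result was not tested.

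The make-up of the granzyme counts differed accordingly. Gzmk made up 0.255 and 0.0861% of the counts of the 4 granzymes in γδ libraries of the control diet and 23.4 and 2.02% in those of the MCD diet. In wild-type CD4+ libraries its share was 0.107 and 1.40% on the control and 8.85 and 36.0% on the MCD diet. In knockout CD4+ libraries it was 2.89 and 1.16% on the control diet and 60.5% (exact 95% binomial interval 57.9 to 63.1) and 82.0% (80.0 to 83.8) on the MCD diet. These intervals cover counting error only, and reads without molecular identifiers are not independent molecules. Gzmb held 99.1 and 87.4% in wild-type CD4+ libraries of the control diet but 39.3 and 16.5% in knockout CD4+ libraries of the MCD diet. The summed level of the 4 granzymes in CD4+ libraries was 42.2 to 85.9 CPM in all but knockout control replicate 1, which read 15.2 CPM.

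**Figure D3:**
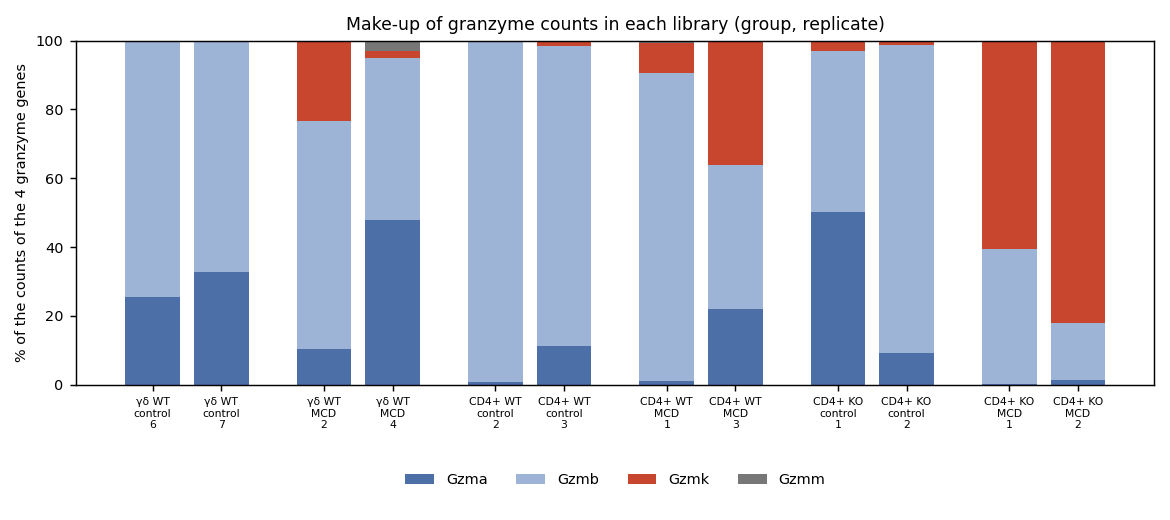
Share of Gzma, Gzmb, Gzmk and Gzmm in the counts of these 4 granzyme genes, as stacked bars that add to 100% in each library. Gzmk takes 60.5 and 82.0% in the knockout CD4+ libraries of the MCD diet and under 3% in every library of the control diet.

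The remaining granzyme values were uneven between replicates. In γδ T cells the mean of Gzmb was 559 ± 133 CPM on the control and 145 ± 58.0 CPM on the MCD diet (n = 2, SD), a 3.85-fold difference without overlap. Its log2 fold change was -1.94 (SE 0.76, adjusted p = 0.223 in edgeR). In γδ T cells 0 of 16218 genes (0%) and 0 members passed for the diet in edgeR, while 3 members had an unadjusted p under 0.05, against 17.5% of all genes. DESeq2 called 2 members there, Gzmk and Ifng, beside 2105 of the 16218 genes, and limma-voom 0, beside 63 genes. Libraries of 5 members did not overlap by diet in γδ T cells, with Gzmk and Ifng higher and Gzma, Gzmb and Nkg7 lower, as did those of 33.2% of all genes. Between the same libraries CD8 sums went from 190 to 327 CPM on the control diet to 69.9 to 82.8 CPM on the MCD diet, endothelial sums from 571 to 1064 to 31.9 to 50.4 CPM and neutrophil sums from 11.4 to 31.1 to 100.05 to 185 CPM, and their part in the γδ diet differences was not tested. Gzmb was 2.23-fold lower on the MCD diet in wild-type CD4+ T cells and 1.86-fold lower in knockout CD4+ T cells, where the libraries overlapped at 7.12 and 63.1 CPM on the control diet and 25.7 and 12.01 CPM on the MCD diet. Without knockout control replicate 2 the knockout difference turned positive, at 1.39. Gzma read 7.61 and 6.54 CPM in knockout CD4+ libraries of the control diet and 0.138 and 1.06 CPM in those of the MCD diet, an 11.8-fold lower mean (log2 fold change -3.36, SE 1.35, adjusted p = 0.787). Only 3 and 23 counts stood behind the MCD values. Gzmm (ENSMUSG00000054206.2) had 16 and 13 counts in γδ libraries of the control diet, 0 and 183 in those of the MCD diet and 0 to 5 in CD4+ libraries. Its levels came to 12.3 CPM in a single γδ library and at most 0.814 CPM elsewhere, so no fold change is given.

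Perforin and Nkg7 are needed for granule killing, Prf1 as the pore and Nkg7 as a membrane protein of the granule that takes part in its release. Nkg7 (ENSMUSG00000004612.9, chromosome 7, 43437073 to 43438249, plus strand) read 158 and 114 CPM in γδ libraries of the control diet and 92.9 and 105 CPM in those of the MCD diet. Wild-type CD4+ libraries read 43.9 and 39.0 CPM on the control and 39.1 and 26.9 CPM on the MCD diet. Every γδ library was above every wild-type CD4+ library, and Nkg7 was 3.15-fold higher in γδ T cells (log2 fold change 1.64, SE 0.42, adjusted p = 0.0358 in edgeR, mean of the diets). This call was lost without wild-type CD4+ control replicate 2 or 3, wild-type CD4+ MCD replicate 1 or 3, or γδ control replicate 6, with log2 fold changes of 1.51 to 1.78 and adjusted p of 0.0728 to 0.119. It was also lost on total counts without TMM, at 0.97 (adjusted p = 0.124), where the median of all genes was -0.84. Knockout CD4+ libraries read 13.9 and 47.3 CPM on the control and 81.4 and 36.8 CPM on the MCD diet, which overlap.

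Prf1 (ENSMUSG00000037202.6, chromosome 10, 61297833 to 61304680, plus strand) had low levels that varied between replicates. It read 14.1 and 13.5 CPM in γδ libraries of the control diet and 15.2 and 1.28 CPM in those of the MCD diet. Wild-type CD4+ libraries read 5.06 and 3.34 CPM on the control and 0.639 and 5.45 CPM on the MCD diet, and knockout CD4+ libraries read 4.63 and 13.3 against 4.75 and 0.874 CPM. The 2 libraries of a group differed 11.9-fold in γδ T cells and 8.53-fold in wild-type CD4+ T cells of the MCD diet. No difference of Prf1 by cell type (log2 fold change 1.55, SE 1.05, adjusted p = 0.381) or diet passed the test.

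Fasl, the ligand that kills through Fas, stood apart in knockout CD4+ T cells of the control diet. It lies on the minus strand of chromosome 1 from 161780689 to 161788495 (ENSMUSG00000000817.10). Knockout CD4+ libraries read 11.8 and 8.37 CPM on the control and 51.0 and 36.2 CPM on the MCD diet, and wild-type CD4+ libraries read 40.0 and 42.9 against 40.6 and 38.1 CPM. The knockout control libraries were thus below the other 10, which read 22.9 CPM or more. The knockout control mean was 4.10-fold below that of wild-type CD4+ T cells of that diet (log2 fold change -2.03, SE 0.72, unadjusted p = 0.0137, adjusted p = 1). The diet ratio in knockout CD4+ T cells was 4.31-fold (log2 fold change 2.10, SE 0.72, adjusted p = 0.694) and that in wild-type CD4+ T cells 0.949. The test of whether these diet differences differ gave 2.17 (SE 0.98, unadjusted p = 0.0451, adjusted p = 1). These comparisons share the same control libraries. The call in knockout CD4+ T cells was made without γδ MCD replicate 2 (adjusted p = 0.038). The NK sum and the mitochondrial share of the knockout control libraries also differed from those of wild-type control libraries, with sums of 8.58 and 10.6 against 82.7 and 86.6 CPM, and their part was not tested. γδ libraries read 49.6 and 54.3 CPM on the control and 22.9 and 143 CPM on the MCD diet, so the γδ MCD pair spans both sides of all other libraries but the knockout controls.

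Ifng, the cytokine of type 1 immunity, had group means in opposite orders between the cell types on the 2 diets, and neither difference passed. It lies on the plus strand of chromosome 10 from 118441046 to 118445892 (ENSMUSG00000055170.4), and 336 of its exonic bases are shared with Gm49751 on the same strand. γδ libraries read 12.8 and 6.44 CPM on the control and 58.2 and 32.6 CPM on the MCD diet, without overlap. Wild-type CD4+ libraries read 55.2 and 18.0 CPM on the control and 21.8 and 32.4 CPM on the MCD diet. Knockout CD4+ libraries read 7.61 and 23.0 against 28.8 and 48.2 CPM. In γδ T cells the MCD mean was 4.71-fold the control mean (log2 fold change 2.22, SE 0.83, adjusted p = 0.216 in edgeR), and DESeq2 called it (2.34, adjusted p = 0.0206). On the control diet the γδ mean was 3.80-fold below that of wild-type CD4+ T cells (log2 fold change -1.91, SE 0.82, adjusted p = 0.43). On the MCD diet the log2 difference was 0.74 (adjusted p = 0.599), and on total counts without TMM it was -0.090. The difference between the diet effects of γδ and wild-type CD4+ T cells was 2.65 (SE 1.14, unadjusted p = 0.0361, adjusted p = 0.45). Without γδ MCD replicate 4 the γδ diet difference was called, at 2.58 (adjusted p = 0.0441).

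Tbx21 and Eomes, the regulators, had low to moderate levels. Eomes (ENSMUSG00000032446.14, chromosome 9, 118478212 to 118486132, plus strand) read 0 and 2.25 CPM in wild-type CD4+ libraries of the control diet and 7.13 and 8.41 CPM in those of the MCD diet. In knockout CD4+ libraries it read 0.146 and 1.06 CPM on the control and 13.8 and 36.2 CPM on the MCD diet. As with Gzmk, all MCD libraries of CD4+ T cells were above all control libraries. The ratio of means was 6.89 in wild-type CD4+ (log2 fold change 2.68, SE 1.57, adjusted p = 1), 41.5 in knockout CD4+ (5.16, SE 1.76, adjusted p = 0.695) and 18.9 over both (3.92, SE 1.17, adjusted p = 0.587). DESeq2 called the last 2, with adjusted p of 0.015 and 0.00684, and edgeR called the value over both genotypes with no filter on low counts (adjusted p = 0.0156) but not with the filter. γδ libraries read 19.0 and 10.5 CPM on the control and 49.0 and 8.06 CPM on the MCD diet. Averaged over the diets, Eomes was 4.86-fold higher in γδ than in wild-type CD4+ T cells (log2 fold change 2.73, SE 1.12, adjusted p = 0.148), and was called without wild-type CD4+ control replicate 3 (adjusted p = 0.0235) or γδ MCD replicate 4 (0.0249). The antisense gene Gm33460 shares 118 exonic bases with Eomes and held 0 to 4 counts.

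Tbx21 (ENSMUSG00000001444.2, chromosome 11, 97098071 to 97115331, minus strand) read 33.5 and 67.7 CPM in γδ libraries of the control diet and 66.2 and 20.3 CPM in those of the MCD diet. Wild-type CD4+ libraries read 26.6 and 32.4 CPM on the control and 26.0 and 14.6 CPM on the MCD diet. Knockout CD4+ libraries read 7.51 and 12.7 against 19.3 and 8.19 CPM. The knockout control mean was 2.92-fold below the wild-type control mean, without overlap (log2 fold change -1.54, SE 0.80, adjusted p = 1). The diet difference in knockout CD4+ T cells was 0.44 (SE 0.78, adjusted p = 0.982), against 5.16 for Eomes in the same fit. The difference between these 2 genes was not tested.

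**Figure D4:**
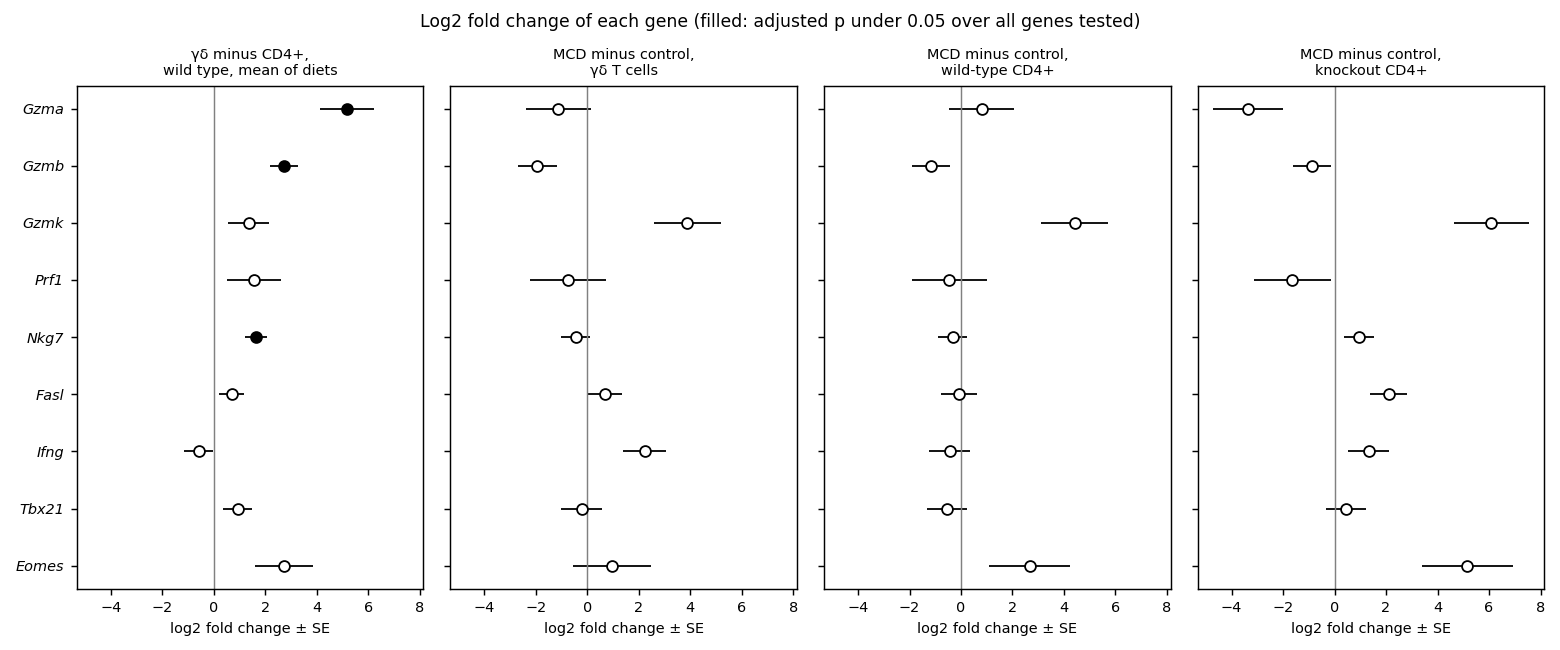
Log2 fold change with its standard error for 9 of the 10 genes in 4 comparisons, with filled points for an adjusted p under 0.05 over all genes tested. Gzmm is left out because its CD4+ libraries held 0 to 5 counts. Gzma, Gzmb and Nkg7 are filled in the cell type comparison, and Gzmk is the gene furthest to the right in all 3 diet comparisons.

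For the diet in CD4+ T cells, 0 of the 10 genes passed in wild-type mice, where 0% of all genes passed, and 0 in knockout mice, where 0.037% passed. DESeq2 called 1 and 2 members, beside 40 and 266 of the 16218 genes, and limma-voom 0 and 0, beside 0 and 19 genes. Libraries of 4 members did not overlap by diet in wild-type mice, against 33.9% of all genes, and those of 5 in knockout mice, against 38.9%. At an unadjusted p under 0.05 there was 1 member in wild-type mice, against 2.13% of all genes. There were 4 in knockout mice, namely Gzmk, Eomes and Fasl as higher and Gzma as lower, against 6.06% of all genes. The median log2 fold change of the 10 genes was -0.20 in wild-type and 0.69 in knockout CD4+ T cells, beside 0.00 and 0.03 for all genes. For the genotype 0 members passed on the control diet (0.0247% of all genes) and 0 on the MCD diet (0%). By unadjusted p there was 1 member in each, Fasl and Gzma, against 4.03% and 2.08% of all genes, and DESeq2 called 0 in both. Libraries of 3 members did not overlap by genotype on the control diet, with Gzma higher and Fasl and Tbx21 lower, against 37.3% of all genes, and those of 2 on the MCD diet, against 32.9%. On the MCD diet Gzmk was 4.75-fold (log2 fold change 2.24, SE 1.23, adjusted p = 1) and Eomes 3.22-fold higher in knockout than in wild-type CD4+ T cells, both without overlap. Gzma was 9.13-fold lower (-2.99, adjusted p = 1), with overlap, and its direction turned without wild-type CD4+ MCD replicate 3. The interactions of diet with genotype and with cell type passed for 0 members and 0% of all genes. By unadjusted p they held 2 and 1 members, against 4.33% and 10.6% of all genes, and DESeq2 called 0 in both. Those by genotype were Fasl and Gzma, the latter at -4.16 (SE 1.81, adjusted p = 1), and that by cell type was Ifng. For Gzmk they were 1.68 (SE 1.85, adjusted p = 1) and -0.52 (SE 1.21, adjusted p = 0.966).

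Other genes of the granule and type 1 pathway were taken from a list of 56, of which 48 were tested. Averaged over the diets, 12 of the 48 rose and 0 fell in γδ against wild-type CD4+ T cells, with a median log2 fold change of 0.43 beside -0.23 for all genes, of which 5.96% passed and 3.42% passed as higher. Among granule cargo and proteases 4 of 9 rose. These were Srgn, the proteoglycan that binds granzymes in the granule, at 2.53-fold, Ctsc, the protease that activates granzymes, at 5.72-fold, and the granule membrane genes Lamp1 at 3.87-fold and Lamp2 at 3.71-fold. Among cytokine receptors 3 of 9 rose, namely Il18r1 at 4.20-fold, Il2rb at 2.29-fold and Ifngr1 at 2.61-fold. Among signalling genes and regulators 2 of 11 rose, Zeb2 at 26.9-fold and Runx3 at 2.84-fold. Among chemokines and homing receptors 3 of 8 rose. These were the chemokine Ccl5 at 5.13-fold and the receptors Cxcr6 at 2.15-fold and Cx3cr1 at 311-fold, from 0.278 to 86.7 CPM. Wild-type CD4+ libraries held 8 and 0 counts of Cx3cr1 on the control and 2 and 14 on the MCD diet. These are near the floor, so the size of this ratio is uncertain. No gene of granule release, 5 tested, and of the other death ligands and cytokines, 6 tested, passed. The lowest p among lower genes were those of Stxbp2, a release factor, at -1.67 (adjusted p = 0.0976), and of the death receptor Fas at -2.21 (adjusted p = 0.164). Ctsc, Lamp1, Zeb2 and Cx3cr1 are among the genes of this list that macrophages also make. Macrophage markers were higher in the γδ libraries, and their part in any of the 12 rises was not tested. Within a diet, Ccl5, Zeb2, Il18r1 and Cx3cr1 rose on the control diet, where 0.654% of all genes passed. These and Srgn, Lamp1, Ctsc, Il2rb and Ifngr1 rose on the MCD diet, where 2.65% passed.

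For the diet, Ccl5 was the 1 pathway gene that passed. In knockout CD4+ T cells it rose 5.12-fold by diet, from 25.5 and 31.9 to 128 and 166 CPM (log2 fold change 2.35, SE 0.35, adjusted p = 0.0356). It rose 3.70-fold over both genotypes (1.78, SE 0.24, adjusted p = 0.0161), and wild-type CD4+ libraries read 27.6 and 31.4 CPM on the control and 67.3 and 68.7 CPM on the MCD diet. Ccl5 thus had, like Gzmk and Eomes, all MCD above all control libraries of CD4+ T cells. In knockout CD4+ T cells 17 of the 48 genes had an unadjusted p under 0.05 as higher and 0 as lower, against 3.82% and 2.24% of all genes. Next to Ccl5 came Bhlhe40, a regulator of cytokine genes, at 2.47 (adjusted p = 0.0909), and the lower ones led with Cx3cr1 at -2.11 and the cytokine Csf2 at -2.40 (both adjusted p = 0.787). In the genotype comparison on the control diet, which uses the same knockout control libraries, 18 were lower at that p and 1 higher, against 4.03% of all genes in either direction. Among the lower genes Lyst, a granule trafficking gene, read -1.28 (adjusted p = 0.365), and Cx3cr1 was the higher one, at 4.60 (adjusted p = 0.762). In wild-type CD4+ T cells 2 were higher and 1 lower at that p, against 2.13% of all genes. They were Ccl5 at 1.20 and Il18r1 at 0.84 as higher and Cxcr6 at -1.41 as lower (all adjusted p = 1). In γδ T cells 5 were higher and 3 lower at that p, a share near the 17.5% of all genes. The smallest p were those of Il18r1 at 0.90 (adjusted p = 0.125) and Srgn at 0.90 (0.202) as higher and, as lower, of Rab27a, a release gene, at -1.34 (0.197) and the death ligand gene Tnfsf10 at -1.24 (0.215).

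**Figure D5:**
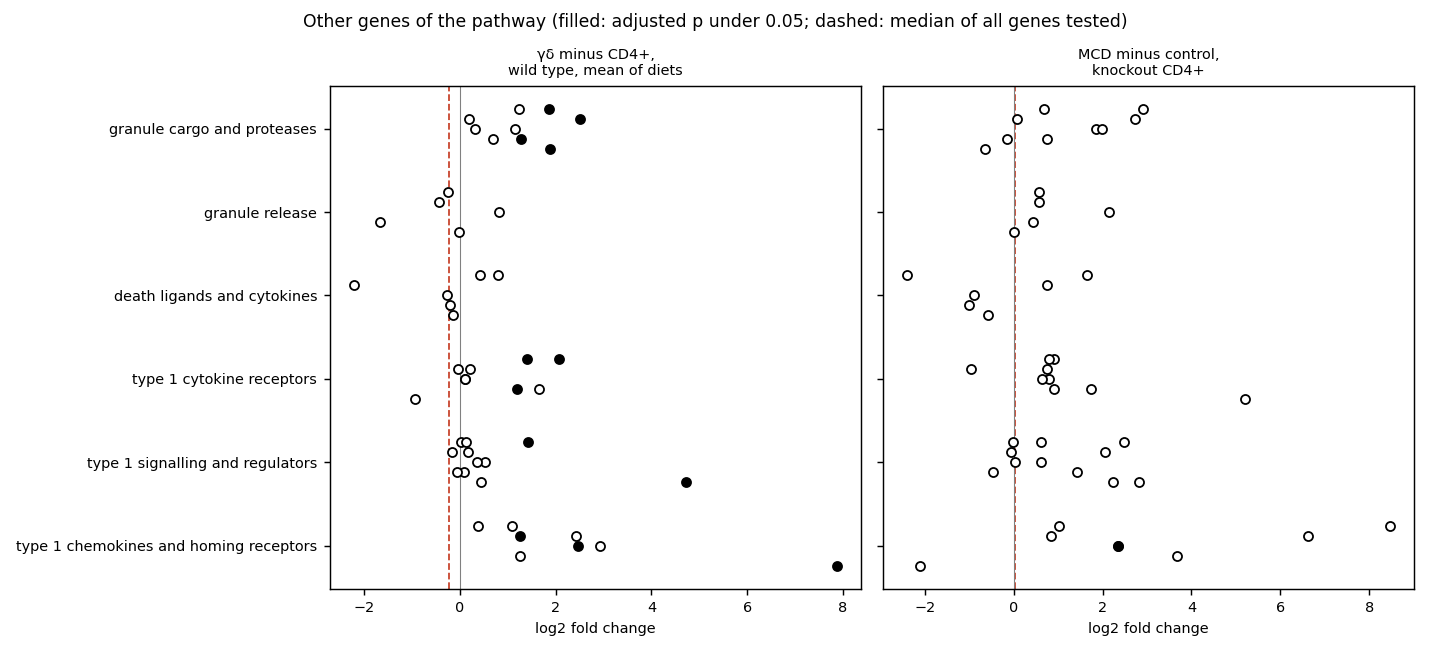
Log2 fold change of the 48 tested pathway genes by role, for γδ against wild-type CD4+ T cells and for the MCD against the control diet in knockout CD4+ T cells. Each point is a gene, filled where the adjusted p is under 0.05, and the dashed line is the median of all genes tested, -0.23 and 0.03; 12 points are filled on the left and 1, Ccl5, on the right.

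Levels between genes were compared per length, on the deposited FPKM. In γδ T cells of the control diet the order was Gzmb at 364 ± 81.8, Gzma at 209 ± 4.96, Nkg7 at 139 ± 29.8, Fasl at 25.2 ± 1.96, Tbx21 at 19.1 ± 9.38, Ifng at 6.95 ± 3.17, Prf1 at 5.02 ± 0.085, Eomes at 3.32 ± 1.30, Gzmk at 0.955 ± 0.771 and Gzmm at 0.480 ± 0.042 FPKM (SD, n = 2). The neighbours Fasl and Tbx21, Ifng and Prf1, and Gzmk and Gzmm overlapped between their libraries. In wild-type CD4+ T cells of the control diet Nkg7 at 42.9 ± 3.10 and Gzmb at 42.2 ± 19.0 FPKM led, followed by Ifng at 26.6 ± 18.9 and Fasl at 20.3 ± 1.22 FPKM, and each of these neighbours overlapped. Gzmk, at 0.270 ± 0.297 FPKM, was near the bottom there. In knockout CD4+ T cells of the MCD diet Nkg7 at 60.7 ± 32.6 led, followed by Gzmk at 33.5 ± 9.48, Ifng at 27.9 ± 9.87 and Fasl at 21.1 ± 5.15 FPKM, neighbours whose libraries overlapped, and by Gzmb at 12.3 ± 6.36 FPKM.

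The gene with the pattern most like each member over the 12 libraries was found among 9710 others by the smallest root mean square difference of centred log2 CPM. It was Phf11d for Gzma (1.50), Cd160 for Gzmb (0.776), Dlg5 for Gzmk (1.47), Syngr2 for Prf1 (0.647), Tor1aip1 for Nkg7 (0.411), Gsap for Fasl (0.46), Ccnl1 for Ifng (0.561), Trip4 for Tbx21 (0.385) and Tnip3 for Eomes (1.34). For Gzmm it was Fat3 (0.826), which like Gzmm was high in 1 γδ library of the MCD diet, at 10.6 CPM, and at most 0.812 CPM elsewhere. Cd160, a receptor of killer lymphocytes, read 157 and 205 CPM in γδ libraries of the control diet and 2.07 to 58.5 CPM in the others. Dlg5 read 0 to 0.325 CPM in the 6 control libraries and 0.605 to 17.2 CPM in the 6 MCD libraries. Among the members themselves, Gzmk and Eomes were each other's nearest, at 1.64. All 12 libraries enter each of these differences, and a low-count gene weighs in with its counting noise.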

How the data were processed

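RNA-seq libraries of sorted γδ and CD4+ T cells were grouped by their labels into 6 groups of 2. Raw counts for each gene, as the authors deposited them, were used for all tests, and the deposited FPKM values were used to compare levels between genes and as an alternative. The tools named per the submitters' processing notes are bcl2fastq, STAR, featureCounts and DESeq2, with mm10 (GRCm38) as the build; versions and the strand setting are not given in the sources used here. The deposited FPKM per count, relative between libraries, followed the TMM scale more than the total counts.

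Low genes were dropped with filterByExpr of edgeR at its minimum count of 10 and minimum total of 15. All 12 libraries were fitted together, 1 coefficient per group, with edgeR 4.0.16 in R 4.3.3 (TMM, 2-sided quasi-likelihood F test), and p-values were adjusted by Benjamini-Hochberg over all 16218 genes and a threshold of 0.05. The standard error was computed from the fold change and its F statistic. The prior count behind log2 fold changes was 2, and folds are ratios of mean CPM. DESeq2 1.42.0, limma 3.58.1 (voom and log2 FPKM with pseudocounts of 1 and 0.1), RLE scaling, total counts, TMM without mitochondrial genes, other filters, only the groups compared, a replicate block and leaving out each library were alternatives. In fits without 1 library the filter was run again and left 18496 to 18692 genes. The test was also tested on simulated data.

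Members and lists were chosen with earlier results of these data known. All members were described in every group, pathway genes were named where they passed the threshold or had 1 of the 2 smallest p in a direction, and 1 gene was named for likeness to each member. One pathway gene that this rule names is not reported here. Likeness used genes with a mean of 5 CPM or more in a group, without antigen receptor segments, pseudogenes and unnamed transcripts. Positions came from GENCODE vM21 and promoters, found for all 10 members, from RefSeq.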

Additional observations from a re-analysis of the deposited data

How the results depend on the processing

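The 3 calls of the report (Gzma, Gzmb and Nkg7 in γδ against wild-type CD4+ T cells, mean of the diets) were made again in 10 of 10 other settings for Gzma and Gzmb and in 9 of 10 for Nkg7, and in 12, 12 and 7 of the 12 fits without 1 library. On total counts without TMM, where Nkg7 was lost, the median of all genes moved from -0.23 to -0.84 and the share of higher calls from 57.5% to 16.7%. On the control diet that share moved from 68.9% to 36.3% and on the MCD diet from 55.6% to 15.2%. The same scaling put Ifng at -0.090 for the cell type on the MCD diet.

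Members called, with 0 in the report for each, came to 2 for the cell type on the control diet, 2 on the MCD diet, 1 for the diet in γδ, 2 in knockout CD4+ T cells, 2 over both genotypes, 1 for the genotype on the MCD diet and 1 for diet by genotype with no filter on low counts. Genes called with no filter came to 354, 1071, 555, 105, 106, 11 and 44 of 25883, in the same order. With DESeq2 the members called were 2, 3, 2, 2 and 2 for the first 5 of these comparisons. There was 1 for the diet in wild-type CD4+ T cells. Over all genes DESeq2 called 917, 2887, 2105, 266 and 196 for those 5 and 40 for the last. With limma-voom and with log2(FPKM + 1) there was 1 member each for the cell type on the control diet, beside 244 and 287 genes. With only the groups compared, 109 of 13502 genes were called for the cell type on the control diet. For the diet over both CD4+ genotypes 54 of 15288 were called. Members among them were 2 and 1. Without 1 library at a time the counts ranged from 0 to 2 and from 0 to 3 for the cell type on the control and MCD diets, 2 to 4 for their mean, 0 to 2 for the diet in γδ, 0 to 2 in knockout CD4+ T cells and 0 to 1 over both genotypes. Calls over all genes varied too: the mean of the diets gave 966 in the report, 3069 with DESeq2, 1625 with limma-voom, 1981 on total counts, 1588 with no filter, 471 with only the groups compared and 457 to 2795 without 1 library. For the diet in γδ T cells they were 0 in the report, 2105 with DESeq2, 63 with limma-voom, 555 with no filter and 21 to 1683 without 1 library. In knockout CD4+ T cells they were 6 in the report, 266 with DESeq2, 19 with limma-voom, 105 with no filter and 6 to 136 without 1 library. The cause of these differences was not tested.

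Fold changes that turned sign without a library, none of them called, ranged on the log2 scale from -0.23 to 1.07 for Fasl by cell type. For the diet in γδ T cells the ranges were -3.33 to 0.13 for Prf1, -1.18 to 1.46 for Fasl, -1.31 to 0.38 for Tbx21 and -0.85 to 1.72 for Eomes. In wild-type CD4+ T cells they were -2.55 to 2.90 for Gzma, -2.53 to 0.37 for Prf1 and -1.02 to 0.59 for Ifng, and in knockout CD4+ T cells -1.77 to 1.39 for Gzmb and -0.30 to 0.92 for Tbx21. Over both genotypes Gzmb ranged from -1.45 to 0.12, and Gzma by genotype on the MCD diet from -4.54 to 0.36. Diet by genotype gave -1.11 to 3.98 for Eomes, and diet by cell type -2.02 to 0.93 for Gzmk, which was 0.42 with log2(FPKM + 1).

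Replicate numbers 1 and 2 are shared by the knockout groups, but the labels do not pair them and the replicate differences had a correlation of -0.00589. With the numbers as a replicate block 0 members were called for the diet in knockout CD4+ T cells, as without it, and 7 genes in place of 6. Gzmk then read 6.11 (adjusted p = 0.378). With 2 libraries in a group, low genes such as Gzmm, and Gzma in CD4+ T cells, are limited by depth as well as spread.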
